A study of Mus musculus with 33 samples.

Results

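The genes described here build and run the postsynaptic density of excitatory synapses: Camk2a and Camk2b, which encode the main subunits of calcium/calmodulin-dependent protein kinase II (CaMKII), and the scaffold genes Dlg4, Dlgap1, Shank1, Shank2, Shank3 and Homer1. They were chosen by symbol, with earlier results of these data known. They are 8 of the 23366 genes in each table of RNA-Seq read counts from mouse frontal cortex. Every one of them was measured in all 33 libraries, and all 8 passed the filter on low counts in both sexes. The lowest count of any of them in a library was 1884, for Shank2.

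The postsynaptic density is a sheet of protein beneath the membrane of the dendritic spine that faces the glutamate-releasing terminal. It is built in layers. PSD-95, the product of Dlg4, lies next to the membrane and holds glutamate receptors in place. The SAPAP (GKAP) protein encoded by Dlgap1 links PSD-95 to the SHANK proteins in the deeper layer, and the Homer proteins cross-link SHANK to the metabotropic glutamate receptors and to calcium stores. CaMKII is the most abundant enzyme of the structure. It is switched on by calcium entry through NMDA receptors and phosphorylates receptors and scaffolds during long-term potentiation, the lasting strengthening of synapses that underlies many forms of learning. Variants of the SHANK genes are linked to autism spectrum disorders in people.

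RNA was taken from the frontal cortex of C57BL/6 offspring at about 1 month of age, each from a litter of its own. Dams in gestation, and later nursing dams together with their pups, breathed filtered air (called air here), aerosol of an e-cigarette whose liquid held 13 to 16 mg/ml nicotine (called nicotine), or aerosol of the e-cigarette without nicotine (called no nicotine), all as whole-body exposures and otherwise handled alike. There were 6 air, 5 nicotine and 5 no nicotine libraries in females and 6, 6 and 5 in males. Each exposure had its own chamber, so chamber and exposure cannot be told apart, and the sexes were sequenced in separate runs, so sex and run cannot be told apart either. The labels name no other allele, transgene or agent.

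Total counts ran from 19150562 to 27513174 per library in females and from 17845672 to 24787955 in males. The labelled tissue was checked against its markers: all 16 genes of a list for cortical glutamatergic neurons were detected in every group, with a summed level of 3506 to 4352 CPM (counts scaled to library size) in female air and 3362 to 3952 CPM in male air libraries. Markers of neighbouring regions were detected as well, with 1175 to 2684 CPM for 12 genes of striatal projection neurons and 24.9 to 89.9 CPM for 9 genes of basal forebrain cholinergic neurons in female air. One library goes against its label. The library labelled male nicotine replicate 21 held 215 CPM of Xist, the RNA that silences an X chromosome in females, and 1 count over 4 Y-linked genes, whereas the other 16 libraries labelled male held at most 0.253 CPM and at least 2140 counts. The male nicotine fold changes against air of the genes described here are given with and without it. Values of other genes and lists keep it unless stated.

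All 8 genes are protein-coding. In the mm9 build, Camk2a lies on chromosome 18 (61085272 to 61147806, plus strand), Camk2b on chromosome 11 (5869647 to 5966365, minus strand), Dlg4 on chromosome 11 (69830587 to 69859034, plus strand) and Dlgap1 on chromosome 17 (70318413 to 71170753, plus strand). Shank1 (51565623 to 51613721) and Shank2 (151187833 to 151610399) lie on the plus strand of chromosome 7, Shank3 on chromosome 15 (89330054 to 89390692, plus strand) and Homer1 on chromosome 13 (94073712 to 94174917, plus strand).

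The annotation holds 6 to 17 transcripts per gene, and the counts are per gene, so isoforms such as the short, activity-induced Homer1a and the long Homer1 forms were merged. Only Shank3 overlaps a gene on the opposite strand, Gm15609, over 271 exonic bases (3.05% of the Shank3 exons), and reads of these 2 genes were not told apart because use of strand in the counting is not given in the sources used here. Of all 50-base stretches of the transcripts, 0.139% of those of Camk2a and 0.0951% of those of Dlgap1 also occur in other genes, and none of those of the other members do.

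Promoter sequences, the 250 bases before the most upstream annotated start, were taken from RefSeq (GRCm38.p6) and found for Camk2b, Dlg4, Shank3, Homer1 and Dlgap1. No entry was found for Camk2a, Shank1 and Shank2. The next lines show 4 of them, each 5′ to 3′ on the strand of the gene: those of Homer1 and Dlgap1, which both fell in females without nicotine, and those of Camk2b and Shank3, which passed the test in no comparison. Capitals mark matches, on either strand, to the core TGACG of the cAMP response element (CRE), to the GC box GGGCGG or to the EGR1 motif GCGTGGGCG.
Homer1, chr13:93303507-93303756, plus strand: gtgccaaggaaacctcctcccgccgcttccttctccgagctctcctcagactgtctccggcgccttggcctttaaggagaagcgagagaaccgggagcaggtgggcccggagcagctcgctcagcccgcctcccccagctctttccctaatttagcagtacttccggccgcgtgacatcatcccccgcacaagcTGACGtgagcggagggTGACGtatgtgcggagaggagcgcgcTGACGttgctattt
Dlgap1, chr17:69968823-69969072, plus strand: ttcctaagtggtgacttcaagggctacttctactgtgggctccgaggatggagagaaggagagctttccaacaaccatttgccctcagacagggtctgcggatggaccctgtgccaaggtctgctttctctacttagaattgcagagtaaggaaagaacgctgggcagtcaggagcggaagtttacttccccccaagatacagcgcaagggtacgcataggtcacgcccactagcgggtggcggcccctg
Camk2b, chr11:6065749-6065998, minus strand: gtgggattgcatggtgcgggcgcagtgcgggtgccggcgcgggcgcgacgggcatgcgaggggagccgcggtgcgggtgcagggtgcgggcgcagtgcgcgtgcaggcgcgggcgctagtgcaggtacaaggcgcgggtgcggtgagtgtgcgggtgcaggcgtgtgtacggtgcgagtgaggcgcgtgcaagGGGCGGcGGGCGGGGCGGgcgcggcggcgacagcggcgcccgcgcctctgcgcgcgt
Shank3, chr15:89499358-89499607, plus strand: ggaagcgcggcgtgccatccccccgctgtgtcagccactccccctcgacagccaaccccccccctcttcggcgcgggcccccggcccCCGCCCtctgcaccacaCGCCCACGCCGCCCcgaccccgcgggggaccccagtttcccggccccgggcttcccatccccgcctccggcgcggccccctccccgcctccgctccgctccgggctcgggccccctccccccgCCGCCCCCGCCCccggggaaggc

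The capitals in Homer1 are 3 copies of the CRE core, which 17.8% of all 32851 promoters of this length hold at least once. Camk2b held 3 and Shank3 held 4 copies of the GC box, present in 32.7% of all promoters, and Shank3 held 1 copy of the EGR1 motif, present in 0.536%, which overlaps one of its GC boxes. Dlgap1 and Dlg4 held none of the motifs searched. The other motifs searched on both strands were the full CRE TGACGTCA (which contains TGACG; 1.55% of all promoters), the E box CAGATG (14.4%), AP-1 TGANTCA (6.75%), the MEF2 motif (3.2%) and the TATA box TATAAA (12.4%), and none of them was found in the 5 promoters. GC content was 82.4% in Shank3, 78.4% in Camk2b, 62.4% in Homer1, 55.2% in Dlgap1 and 47.2% in Dlg4, against a median of 52.4% over all promoters. A match is a description of letters in a window and says nothing about a factor bound there.

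Levels per length, that is, normalized CPM per kilobase of joined exons, set the 8 genes apart by more than an order of magnitude in air. In females Camk2a stood highest at 731 ± 87.3 (SD, n = 6), followed by Dlg4 at 259 ± 24.8, Camk2b at 107 ± 3.71 and Shank1 at 76.1 ± 11. Shank3 (40.5 ± 4.24) and Dlgap1 (36.6 ± 2.82) came next with overlapping libraries, and Homer1 (18.9 ± 3.17) and Shank2 (17.1 ± 1.62) were lowest and overlapped as well. In males the order was the same down to Dlgap1, from 664 ± 41 for Camk2a (n = 6) to 38.2 ± 2.63 for Dlgap1, and below it Shank2 (21.1 ± 1.89) stood above Homer1 (15.9 ± 1.60) in every library. All other neighbours in the order were apart in every air library. With the mean transcript length in place of the joined exons, Camk2a, Dlg4, Camk2b and Shank1 kept their places, but Dlgap1 then stood above Shank3 in both sexes (171 against 113 in females), and Homer1 stood above Shank2 in males too (82.9 against 35.8).

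Members were compared between exposures within each sex with edgeR's quasi-likelihood test on the counts of all genes, and calls needed a p below 0.01 after Benjamini-Hochberg adjustment. Without nicotine, 5 of the 8 genes fell against air in females (Camk2a, Dlgap1, Shank1, Shank2 and Homer1) and 4 fell in males (Camk2a, Dlgap1, Shank1 and Shank2), each to between 0.592 and 0.709 of its air level, and none rose. Among all genes tested, 7.03% were called lower in females and 7.47% in males. The members were chosen with earlier results of these data known, so these shares stand beside the counts without a test of the set. With nicotine no member was called in either sex. Camk2b and Shank3 were called in no comparison by edgeR, DESeq2 or limma-voom. The comparisons with air of one sex share their air libraries, so their values stand side by side and do not count as independent of each other.

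**Figure D1:**
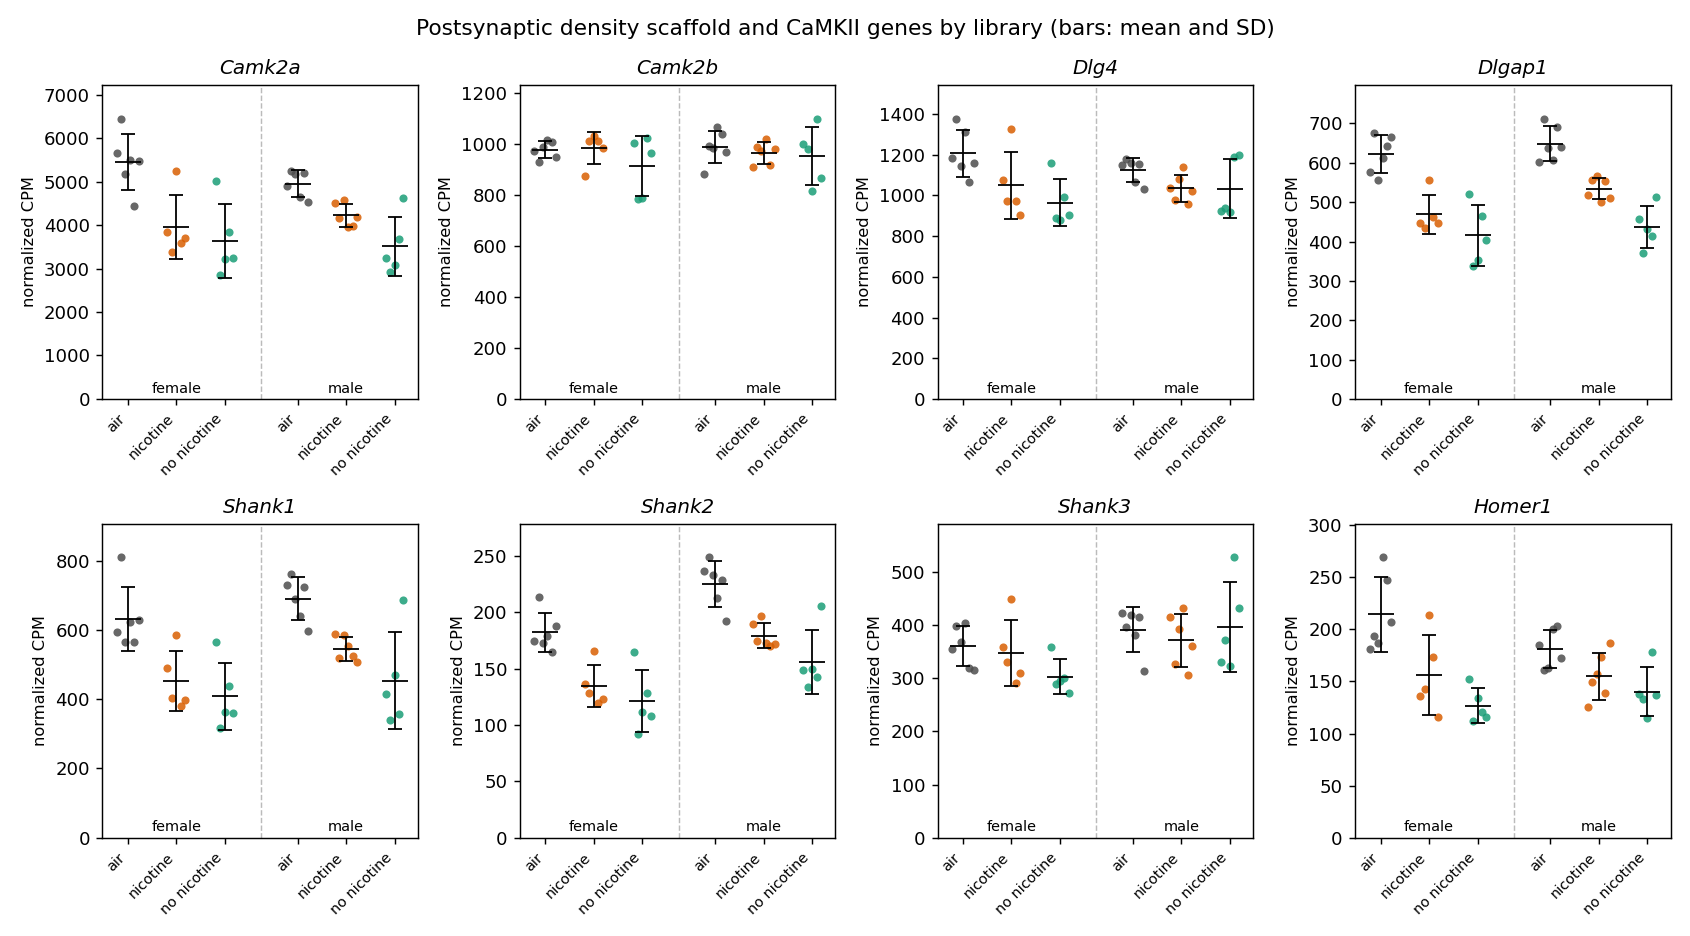
Normalized CPM of the 8 genes (y axis, from 0) in each library by sex and exposure (x axis), with the mean and SD of each group as bars. Camk2a, Dlgap1, Shank1 and Shank2 lie lowest without nicotine in both sexes, while Camk2b keeps group means between 914 and 990 CPM throughout.

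Camk2a encodes the alpha subunit of CaMKII, the predominant one in forebrain excitatory neurons. Female air libraries held 4451 to 6453 normalized CPM of Camk2a (median 5491). The nicotine libraries 1, 2, 3, 5 and 6 held 3836, 3392, 5245, 3594 and 3707 CPM. The no nicotine libraries 1 to 5 held 5009, 2854, 3222, 3844 and 3247 CPM. In each exposed group 4 of 5 libraries lay below every air library, and the exception was nicotine 3 in one group and no nicotine 1 in the other. The log2 fold change against air was -0.59 (SE 0.14, edgeR adjusted p = 0.00601) without nicotine and -0.46 (SE 0.14, edgeR adjusted p = 0.0365) with nicotine. By edgeR only the first passed, while the value with nicotine passed by DESeq2 (adjusted p = 0.0091) and by limma-voom (0.00742). The call without nicotine was lost in 7 of the 16 fits that left out 1 library (adjusted p up to 0.0212). Less Camk2a RNA in these bulk samples can come from fewer cells that express it or from less RNA per cell, and the 2 cannot be told apart.

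In males, air libraries held 4539 to 5258 CPM of Camk2a (median 5043) and nicotine libraries 3956 to 4580 CPM (median 4175), 5 of 6 of them below every air library. Without nicotine, replicates 2, 3, 4, 5 and 7 held 3243, 2921, 3089, 3679 and 4633 CPM. Without nicotine 4 of 5 libraries lay below all air libraries, and replicate 7 lay inside the air range. The fall without nicotine was -0.50 on the log2 scale (SE 0.09, adjusted p = 0.000776 by edgeR), and the call held in all 17 fits that left out 1 library. With nicotine the difference was -0.23 (SE 0.09, adjusted p = 0.233), and -0.21 (SE 0.09, adjusted p = 0.34) without the library labelled male nicotine replicate 21.

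Camk2b encodes the beta subunit, which binds actin and anchors the kinase in the spine. Its level lay between 930 and 1018 CPM in female air, between 877 and 1035 CPM with nicotine and between 786 and 1026 CPM without nicotine. In males the ranges were 883 to 1067, 910 to 1021 and 818 to 1101 CPM in the same order. All exposed groups overlapped air. The log2 fold changes were 0.01 and -0.10 (SE 0.07 each) in females with and without nicotine and -0.03 (SE 0.06) and -0.05 (SE 0.07) in males, with edgeR adjusted p of 0.951, 0.341, 0.857 and 0.613. Without male nicotine replicate 21 the male value with nicotine was -0.02 (SE 0.07, adjusted p = 0.933).

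The level of Camk2a relative to Camk2b is given as a ratio, which was chosen after the counts were seen and was not tested. Per length, Camk2a exceeded Camk2b by a median factor of 6.82 in female air libraries (5.40 to 8.49), 4.59 with nicotine (4.10 to 6.20) and 4.58 without nicotine (4.12 to 6.10). In males the medians were 6.27 in air (5.33 to 6.79), 5.26 with nicotine (4.74 to 6.08) and 4.08 without nicotine (3.64 to 6.51). The groups overlapped in every case. Camk2g, which encodes the gamma subunit, was called lower in females with nicotine (log2 fold change -0.31, SE 0.06, edgeR adjusted p = 0.00464) and without it (-0.27, SE 0.06, adjusted p = 0.00445), but its male values were -0.03 and -0.05 (adjusted p = 0.826 and 0.54). Camk2d, which encodes the delta subunit, was called in no comparison by edgeR, with values from -0.30 to 0.19 against air. Among the 4 CaMKII genes per length, Camk2a made up a median of 82.0% in female air, 76.2% with nicotine and 76.0% without nicotine, and 81.1%, 77.9% and 75.2% in males.

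**Figure D2:**
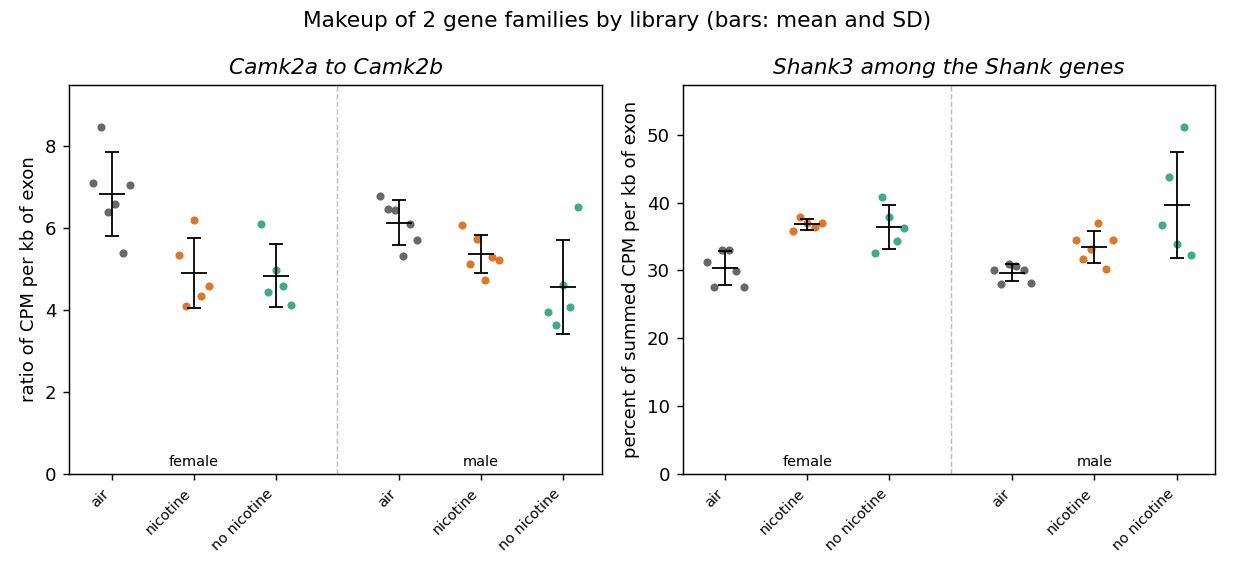
Left, ratio of Camk2a to Camk2b per kilobase of exon; right, share of Shank3 in the summed level of the 3 Shank genes in percent (y axes, from 0), by library, sex and exposure (x axis), with the mean and SD of each group as bars. In the left panel every exposed group overlaps air and has a lower mean; in the right panel the female nicotine libraries (35.9 to 38%) lie above all female air libraries (27.6 to 33.1%).

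Dlg4 encodes PSD-95, the scaffold that holds NMDA and AMPA receptor complexes at the membrane. Its level was 1065 to 1378 CPM in female air libraries (median 1173), 904 to 1325 CPM with nicotine (median 975) and 882 to 1159 CPM without nicotine (median 903). In males it was 1034 to 1177 CPM in air (median 1153), 960 to 1140 CPM with nicotine (median 1029) and 919 to 1201 CPM without nicotine (median 938). All groups overlapped air, and the male no nicotine libraries 5 and 7 lay above every air library. By edgeR no difference from air passed: it was -0.20 (SE 0.10, adjusted p = 0.188) and -0.32 (SE 0.10, adjusted p = 0.0228) in females with and without nicotine, and -0.12 in both male comparisons (adjusted p = 0.479 and 0.262). Without male nicotine replicate 21 the male value with nicotine was -0.10 (SE 0.07, adjusted p = 0.632). The female difference without nicotine did pass by DESeq2 (adjusted p = 0.00748) and by limma-voom (0.00439).

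Dlgap1 encodes SAPAP1, the link between PSD-95 and the SHANK layer, and it was the member with the smallest p in each of the 4 comparisons with air. Female air libraries held 556 to 675 CPM (median 628). The nicotine libraries 1, 2, 3, 5 and 6 held 447, 435, 557, 462 and 447 CPM, and the no nicotine libraries 1 to 5 held 521, 338, 353, 465 and 403 CPM. All 5 no nicotine libraries lay below the air range, and nicotine 3 alone touched it among the nicotine libraries. Dlgap1 fell by 0.58 on the log2 scale (SE 0.10) without nicotine, to 0.669 of the air level (edgeR adjusted p = 0.00116), and differed by -0.41 (SE 0.10, adjusted p = 0.0145) with nicotine. That second value passed by DESeq2 (0.00185) and limma-voom (0.00452).

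In males Dlgap1 stood at 602 to 712 CPM in air (median 639) and at 501 to 566 CPM with nicotine (median 536). The no nicotine libraries 2, 3, 4, 5 and 7 held 456, 371, 432, 414 and 513 CPM. Every nicotine and every no nicotine library lay below every air library. The fall without nicotine was -0.57 on the log2 scale (SE 0.07, edgeR adjusted p = 2.53e-05), and the call held in all 17 fits that left out 1 library, as it did in all 16 such fits in females. With nicotine the log2 difference was -0.28 (SE 0.06, adjusted p = 0.0666 by edgeR, 0.00304 by DESeq2), and -0.29 (SE 0.07, edgeR adjusted p = 0.0992) without male nicotine replicate 21.

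Shank1 encodes a master scaffold of the deep layer that promotes the growth of spine heads. Female air libraries held 565 to 809 CPM (median 609), with replicate 2 far above the rest. The nicotine libraries 1, 2, 3, 5 and 6 held 491, 403, 586, 382 and 396 CPM, and the no nicotine libraries 1 to 5 held 564, 318, 364, 438 and 361 CPM. The no nicotine libraries all lay below the air range, replicate 1 by about 1 CPM. Shank1 fell by 0.63 on the log2 scale (SE 0.14, edgeR adjusted p = 0.00493) without nicotine, a call that 5 of the 16 fits without 1 library lost (adjusted p up to 0.0177). With nicotine the difference was -0.48 (SE 0.14, adjusted p = 0.0348 by edgeR, 0.0095 by DESeq2).

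Male air libraries held 597 to 760 CPM of Shank1 (median 707) and nicotine libraries 507 to 588 CPM (median 538). Without nicotine, replicates 2, 3, 4, 5 and 7 held 414, 340, 469, 358 and 686 CPM. All nicotine libraries lay below the air range, whereas without nicotine 4 of 5 did and replicate 7 lay well inside it. The fall without nicotine was -0.61 (SE 0.13, edgeR adjusted p = 0.00251) with that library and -0.80 (SE 0.09, adjusted p = 6.7e-06) without it, and the call was lost when only the 2 groups compared entered the fit (adjusted p = 0.0108). The difference with nicotine was -0.34 (SE 0.12, adjusted p = 0.213), and -0.33 (SE 0.13, adjusted p = 0.295) without male nicotine replicate 21.

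Shank2 encodes a second deep scaffold of the same family. Female air libraries held 165 to 214 CPM (median 177). The nicotine libraries 1, 2, 3, 5 and 6 held 136, 128, 166, 119 and 123 CPM, and the no nicotine libraries 1 to 5 held 165, 92.4, 112, 129 and 108 CPM. The no nicotine libraries all lay below the lowest air library, replicate 1 by under 1 CPM, and nicotine 3 was the 1 nicotine library inside the air range. Shank2 fell by 0.59 on the log2 scale (SE 0.12, edgeR adjusted p = 0.00257) without nicotine and differed by -0.44 (SE 0.12, adjusted p = 0.0245 by edgeR, 0.00584 by DESeq2) with it.

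In males Shank2 was measured at 192 to 249 CPM in air (median 231) and 170 to 197 CPM with nicotine (median 174). The no nicotine libraries 2, 3, 4, 5 and 7 held 149, 134, 150, 143 and 205 CPM. Without nicotine 4 libraries lay well below the air range and close together, and replicate 7 lay inside it, while 5 of 6 nicotine libraries lay below it. The fall without nicotine was -0.53 (SE 0.09, edgeR adjusted p = 0.000377), and the call held in each fit that left out 1 library, in females too. With nicotine the difference was -0.33 (SE 0.08, adjusted p = 0.0885), and -0.31 (SE 0.09, adjusted p = 0.162) without male nicotine replicate 21.

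Shank3 encodes the third SHANK scaffold. It was measured at 317 to 404 CPM in female air, 291 to 450 CPM with nicotine and 272 to 359 CPM without nicotine, and at 313 to 423, 306 to 432 and 323 to 528 CPM in males in the same order. The highest value of all came from a male no nicotine library, replicate 5, and every exposed group overlapped air. The log2 differences were -0.05 (SE 0.10, edgeR adjusted p = 0.788) and -0.25 (SE 0.10, adjusted p = 0.0863) in females with and without nicotine, and -0.07 (SE 0.11, adjusted p = 0.825) and 0.02 (SE 0.12, adjusted p = 0.93) in males. Without male nicotine replicate 21 the first male value was -0.02 (SE 0.11, adjusted p = 0.956). As a description with no test, Shank3 made up a median of 30.6% of the summed Shank level per length in female air, 36.9% with nicotine and 36.3% without, and 30.1%, 33.8% and 36.8% in males. In females the nicotine libraries did not overlap air in this share, and the no nicotine libraries did (32.6 to 40.9% against 27.6 to 33.1%). In males the no nicotine libraries (32.3 to 51.2%) lay above air (28.0 to 31%), and the nicotine libraries overlapped it through the library labelled male nicotine replicate 21. Without that library they ran from 31.7 to 37% and lay above air as well.

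Homer1 encodes the scaffold that ties SHANK to metabotropic glutamate receptors. Female air libraries held 181 to 269 CPM (median 200). The nicotine libraries 1, 2, 3, 5 and 6 held 136, 143, 214, 174 and 116 CPM, and the no nicotine libraries 1 to 5 held 152, 112, 135, 120 and 116 CPM. All no nicotine libraries lay below air, and of the nicotine libraries only replicate 3 did not. The fall without nicotine was the largest of any member in any comparison, -0.76 on the log2 scale (SE 0.14, edgeR adjusted p = 0.00165), to 0.592 of the air level. With nicotine the difference was -0.45 (SE 0.14, adjusted p = 0.0431).

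Male air libraries held 161 to 203 CPM of Homer1 (median 179) and nicotine libraries 125 to 187 CPM (median 153). Without nicotine, replicates 2, 3, 4, 5 and 7 held 138, 133, 115, 179 and 137 CPM. The groups overlapped, through replicate 5 without nicotine and through 2 libraries with nicotine. Homer1 did not pass in males by edgeR, at -0.37 (SE 0.11, adjusted p = 0.0168) without nicotine and -0.22 (SE 0.10, adjusted p = 0.328) with it, or -0.19 (SE 0.11, adjusted p = 0.465) with nicotine once male nicotine replicate 21 was left out. The value without nicotine passed by DESeq2 (adjusted p = 0.00489) and limma-voom (0.0059), and by edgeR without replicate 5 (-0.47, SE 0.10, adjusted p = 0.00228).

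**Figure D3:**
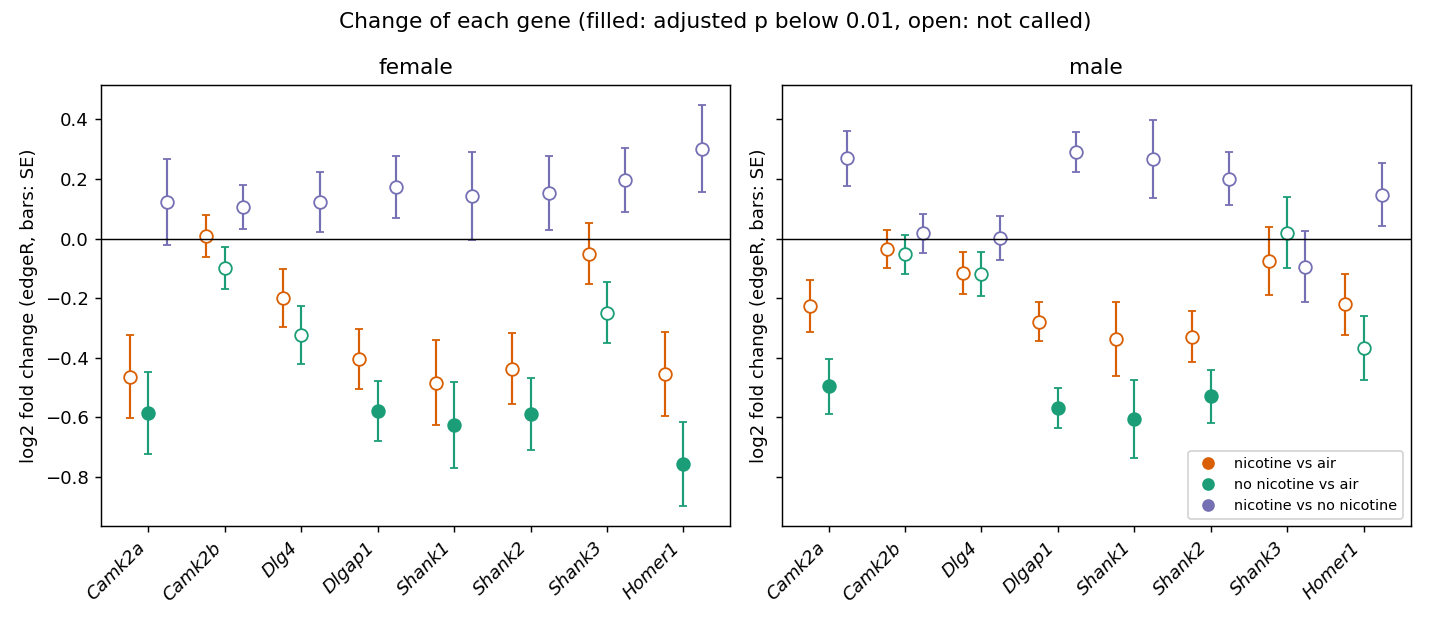
Fitted log2 fold change (y axis) of each gene (x axis) with its SE as bars, in females (left) and males (right), for nicotine against air, no nicotine against air, and nicotine against no nicotine; filled points passed an edgeR adjusted p below 0.01. The filled points are the 5 female and 4 male falls without nicotine, from -0.50 to -0.76.

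Counted over the members, 5 of 8 were called lower in females without nicotine, and all 8 fitted values were below 0, as were those of 47.9% of all genes, with a median of -0.58 against 0.01 over all 15158 genes tested. The 12.1% of all genes called in either direction is the background for that count. DESeq2 and limma-voom each called 6 of 8, against 17.1% of all genes with either. Shank1, Shank2, Homer1 and Dlgap1 were the 4 members with every no nicotine library below every air library, which held for 6.27% of all genes. Between 3 and 6 members were called when single libraries were left out, with 3 without air 2, air 6, or no nicotine 2, 3 or 5, where Camk2a and Shank1 were the ones lost, and 6 without nicotine 3 or no nicotine 1, where Dlg4 was added.

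In males without nicotine 4 of 8 members were called lower, where 13.6% of the 15293 genes tested were called in either direction. The median over the members was -0.43, against 0.02 over all genes. DESeq2 and limma-voom called 5 of 8, against 17.2% and 15.2% of all genes, with Homer1 as the addition. Only Dlgap1 had every library below every air library, which held for 6.94% of all genes. The count was 4 or 5 in all 17 fits that left out 1 library.

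In females with nicotine the edgeR test called 0 of 8 members, against 4.29% of all genes. At an unadjusted p below 0.05 there were 5 (Camk2a, Shank1, Shank2, Homer1 and Dlgap1), against 28.1% of all genes. DESeq2 called 4 of 8 and limma-voom 3, against 8.7% and 6.68% of all genes. No member had all nicotine libraries below air, which 3.6% of all genes had, and nicotine replicate 3 lay inside the air range for 6 of the 8 members and above it for Camk2b and Shank3. Without that library the same 5 members were called by edgeR, with log2 fold changes from -0.47 for Dlgap1 to -0.59 for Shank1 and adjusted p from 0.00534 to 0.0094. Leaving out no nicotine 1 gave 2 calls, and leaving out no nicotine 2 gave 1 call, although neither library belongs to the groups compared, since all groups of a sex share 1 estimate of the spread.

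In males with nicotine edgeR called 0 of 8 members and 0% of all genes. At an unadjusted p below 0.05 there were again 5 (Camk2a, Dlgap1, Shank1, Shank2 and Homer1), against 14.4% of all genes. DESeq2 called 1, Dlgap1, against 1.04% of all genes, and limma-voom called 0. Shank1 and Dlgap1 had every nicotine library below every air library, which held for 1.24% of all genes. No member was called without male nicotine replicate 21, or without any other single library.

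Nicotine and no nicotine libraries were also compared with each other. They differ in nicotine, in chamber and in aerosol load, for which the paper gives a lower mean with nicotine. These differences cannot be told apart. In females edgeR, DESeq2 and limma-voom called 0 members and 0% of all genes, and 0 members had an unadjusted p below 0.05, against 8.36% of all genes. All 8 female values were higher with nicotine, from 0.11 for Camk2b (SE 0.07) to 0.30 for Homer1 (SE 0.15), with edgeR adjusted p from 0.597 to 0.837. Without female nicotine 3 they ran from 0.0002 for Camk2a to 0.16 for Homer1. Without female no nicotine 1 they ran from 0.15 for Camk2b to 0.38 for Homer1, and no fit without 1 library called a member. In males edgeR called 0 members and 0.248% of all genes, while 3 members (Camk2a, Shank2 and Dlgap1) had an unadjusted p below 0.05, against 20.1% of all genes. DESeq2 called Dlgap1 alone, against 2.98% of all genes, and limma-voom called 0. Dlgap1 was higher with nicotine by 0.29 (SE 0.07, adjusted p = 0.0256 by edgeR, 0.00169 by DESeq2), with 4 of the 6 nicotine libraries above all no nicotine libraries, and by 0.28 (SE 0.07, edgeR adjusted p = 0.054) without male nicotine replicate 21. Without male no nicotine replicate 7, edgeR called 3 members higher with nicotine: Camk2a (0.39, SE 0.07, adjusted p = 0.00406), Dlgap1 (0.35, SE 0.06, adjusted p = 0.00406) and Shank1 (0.47, SE 0.08, adjusted p = 0.00565). A p that misses the threshold does not show that the 2 exposures acted alike.

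The change against air was then compared between the sexes in 1 fit of all 6 groups over 15105 genes. No member was called for either exposure by edgeR or DESeq2. With nicotine the change in males minus that in females ran from -0.05 for Camk2b (SE 0.10) to 0.23 for Camk2a (SE 0.17), with edgeR adjusted p of at least 0.854 and 0 of 8 below an unadjusted p of 0.05. Without nicotine it ran from 0.002 for Dlgap1 (SE 0.12) to 0.38 for Homer1 (SE 0.18), with adjusted p of at least 0.945 and 1 of 8, Homer1, below an unadjusted p of 0.05. Over all genes edgeR called 0 for either exposure. At an unadjusted p below 0.05 there were 978 genes (6.47%) with nicotine and 742 (4.91%) without, and DESeq2 called 1 gene (0.00662%) and 0 genes. The calls of Homer1 in females and not in males are thus not shown to differ. Leaving out male nicotine replicate 21 gave no call either, and the values with nicotine then ran from -0.04 for Camk2b to 0.26 for Homer1.

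**Figure D4:**
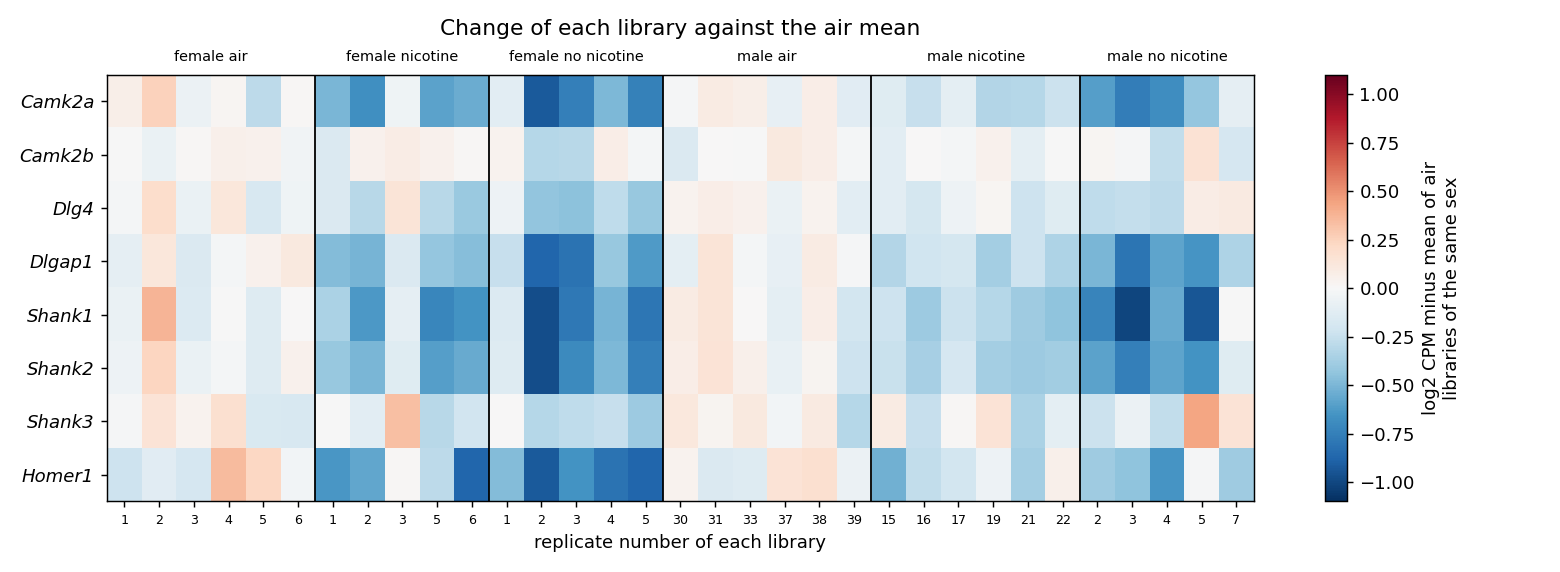
Log2 CPM of each gene (rows) in each library (columns, grouped by sex and exposure and labelled by replicate number) minus the mean of the air libraries of the same sex, in colour from blue (lower) to red (higher). Camk2a, Dlgap1, Shank1 and Shank2 are blue in most exposed libraries and palest in female nicotine 3, female no nicotine 1 and male no nicotine 7 within their groups, while Camk2b lies between -0.31 and 0.16 in every library.

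How alike the genes were, library by library, was measured too. The measure for 2 genes was the root mean square difference of their log2 CPM, each relative to its own air mean in the same sex, over the 33 libraries. Shank2 lay 0.0849 from Camk2a, 0.0937 from Shank1 and 0.106 from Dlgap1, and the pairwise distances among these 4 genes ran from 0.0849 to 0.154. Homer1 was farther off (0.238 from Dlgap1, its nearest member), and Dlg4 and Shank3 were nearest to each other (0.125). Camk2b had Dlg4 as its nearest member at 0.198. Of 9816 genes with a mean of at least 10 CPM, and leaving out the members, the 2 nearest to Camk2a were Cacnb3 (0.0711) and Iqsec2 (0.0769), those nearest to Shank2 were Iqsec2 (0.0803) and Cacnb3 (0.0899), and those nearest to Dlgap1 were Faah (0.0752) and Sprn (0.0787). Shank1 was followed most closely by Rap1gap2 (0.121) and Iqsec2 (0.122), and Homer1 by Pcsk2 (0.131) and Mal2 (0.137). For the other members the nearest genes were Myt1l (0.0664) and Abhd12 (0.0737) for Camk2b, Csnk1g2 (0.0595) and Fam108a (0.0681) for Dlg4, and Fbxl16 (0.0955) and Chst2 (0.106) for Shank3. These distances also take in what all genes of a library share, such as its makeup of cells.

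Other genes of the same synapse were read from lists. Without nicotine, edgeR called 12.1% of all genes in females (7.03% lower) and 13.6% in males (7.47% lower). With nicotine it called 4.29% in females and 0% in males. These shares stand beside the counts of all lists below. The lists were chosen with earlier results of these data known. Of 37 further postsynaptic density scaffolds, 16 were called lower and 1 higher in females without nicotine (median log2 fold change -0.27), and 14 were called lower and 0 higher in males (median -0.20). The female count of calls ran from 8 without no nicotine 2 to 24 without no nicotine 1 when single libraries were left out, and the male count from 13 to 16. Kalrn, a guanine nucleotide exchange factor that shapes spines, had the smallest p among those called lower in both sexes, from 394 ± 46.8 CPM (SD, n = 6) to 232 ± 44.9 (n = 5) in females (log2 fold change -0.77, SE 0.12, edgeR adjusted p = 0.000841) and from 407 ± 29.8 to 273 ± 36.7 in males (-0.58, SE 0.07, adjusted p = 2.73e-05). Grip2, a PDZ protein that binds AMPA receptors, was the 1 called higher in females (0.27, SE 0.07, adjusted p = 0.00915). With nicotine 2 were called lower in females (median -0.16), with Sorbs2 as the one of smallest p (-0.46, SE 0.08, adjusted p = 0.00194), and 0 in males (median -0.14).

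Among 25 other genes of CaMKII and calmodulin signalling, 14 were called lower and 0 higher in females without nicotine (median -0.27), and 9 and 0 in males (median -0.21). The female count fell to 1 without no nicotine 2 or 3, to 5 without no nicotine 5, to 7 without air 4 or 6 and to 9 without air 5, and was at most 15. The male count was 5 without no nicotine 3, 6 without air 31 or no nicotine 4, and at most 10. Camkk1, a kinase that activates other CaM kinases, was lower in females with nicotine (-0.31, SE 0.05, edgeR adjusted p = 0.00203) and without it (-0.30, SE 0.05, adjusted p = 0.0014). With nicotine 3 of the 25 were called lower in females and 0 in males.

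Of 16 glutamate receptor genes, 6 were called lower and 1 higher in females without nicotine, and 6 lower and 0 higher in males. With single libraries left out the calls ran from 3 (without no nicotine 3) to 9 in females and from 4 to 7 in males. Grin2a, an NMDA receptor subunit, fell by 1.08 on the log2 scale (SE 0.15, edgeR adjusted p = 0.000802) in females without nicotine and by 0.88 (SE 0.15, adjusted p = 0.00216) with nicotine, from 13.0 ± 2.31 CPM in air to 6.16 ± 0.904 and 7.11 ± 1.61. It was the 1 gene of the 16 called with nicotine, in females, where edgeR called 4.29% of all genes. Grin2b, another NMDA receptor subunit, fell by 0.81 (SE 0.12, adjusted p = 9.95e-05) in males without nicotine.

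Of the 8 scaffold genes of inhibitory synapses, 2 were called lower and 1 higher in females without nicotine and 1 lower in males, with medians of 0.01 in both sexes. Mdga1, which binds neuroligins, was called higher in females with nicotine (0.31, SE 0.07, edgeR adjusted p = 0.00911) and without it (0.41, SE 0.07, adjusted p = 0.00107). With nicotine it was the only call of the list, and the count stayed at 1 in 4 of the 16 fits without 1 library. It was 0 in a fit of only the groups compared and with the female replicate number as a block. Slitrk3, an organizer of inhibitory synapses, was called lower without nicotine in both sexes (-0.28 and -0.34, edgeR adjusted p = 0.00497 and 0.00658). The male count of this inhibitory list stayed at 1 in 11 of the 17 fits without 1 library and was 0 with only the groups compared. That count, 1 of 8, is near the 13.6% of all genes called in males. On the presynaptic side, 12 of 20 active zone genes were called lower and 1 higher in females without nicotine, and 14 lower and 0 higher in males. The female calls of this list ran from 4 (without no nicotine 3) to 15 with single libraries left out, and the male calls from 12 to 16. Among them Apba2, an adaptor of the release machinery, had the smallest p in females (-0.31, SE 0.05, adjusted p = 0.000841), and Erc2, an active zone scaffold, in males (-0.50, SE 0.05, adjusted p = 2.14e-05). Unc13c, a vesicle priming factor, was the 1 called higher in females without nicotine (0.67, SE 0.15, adjusted p = 0.00416). With nicotine 4 of the 20 were called lower in females, again with Apba2 as the one of smallest p (-0.33, SE 0.05, adjusted p = 0.000816), and 0 in males.

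Of 12 immediate early genes, which neurons switch on with activity and of which Arc is also in the list of scaffolds, 3 were called lower in females without nicotine (median -0.55) and 1 in males (median -0.22), and 0 with nicotine in either sex by edgeR (1 in females by limma-voom). Egr3 was the one with the smallest p in both sexes (-0.93 and -0.50, edgeR adjusted p = 0.00349 and 0.00631). The female count without nicotine ran from 0 (without no nicotine 5) to 3 with single libraries left out. The male count ran from 0 to 2 in such fits, and 1 of 12 is near the 7.47% of all genes called lower in males. In females with nicotine the counts of the lists depended on the test and on single libraries. DESeq2 called 10 of 37 scaffolds, 7 of 25 signalling genes and 5 of 16 receptors, and limma-voom 8, 8 and 5. With single libraries left out, edgeR called 2 to 9 scaffolds, 1 to 7 signalling genes, 1 to 3 receptors and 1 to 6 active zone genes, and each of these highest counts was reached without nicotine replicate 3, those of receptors and active zone genes without other libraries too. The scaffold count was also 8 without no nicotine 1 and 5 without no nicotine 2.

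**Figure D5:**
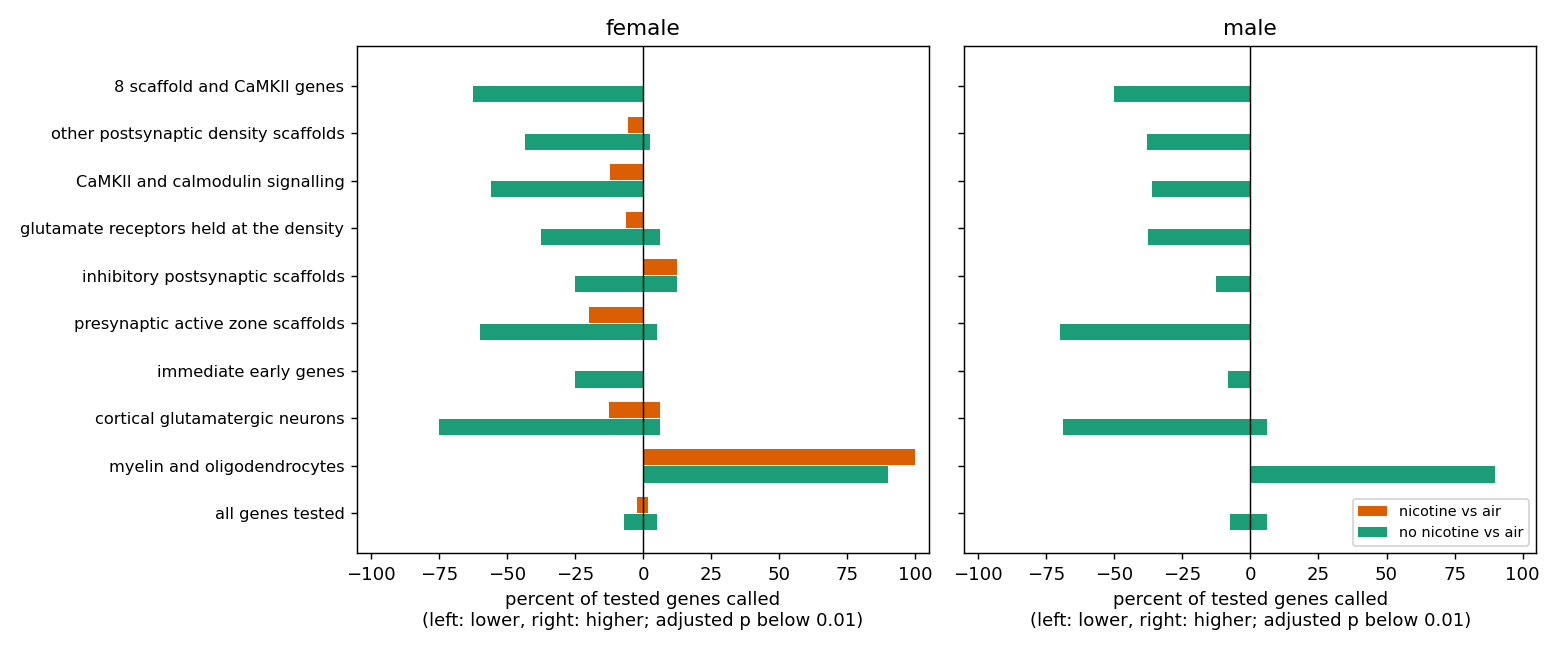
Percent (x axis) of the tested genes of each list (y axis) called lower (bars to the left) or higher (bars to the right) at an edgeR adjusted p below 0.01, in females (left) and males (right), with nicotine and without nicotine against air. Without nicotine the excitatory lists extend to the left in both sexes, myelin genes extend to the right, and male nicotine has no bars.

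Markers of some cell types changed as well. Of 16 markers of cortical glutamatergic neurons, the cells that hold most of these synapses, 12 were called lower and 1 higher in females without nicotine (median -0.88) and 11 lower and 1 higher in males (median -0.79). The female calls ran from 4 (without no nicotine 3 or 5) to 13 with single libraries left out, and the male calls from 10 to 13. Their summed level was 1615 to 3374 CPM without nicotine and 2462 to 3293 CPM with nicotine in females, against 3506 to 4352 CPM in air, and 1443 to 2536 and 2533 to 3344 CPM in males, against 3362 to 3952 CPM. Neither exposed group of either sex overlapped its air group. The summed level of the 8 members was 5678 to 8933 CPM without nicotine, 6817 to 9577 CPM with nicotine and 8465 to 11051 CPM in air in females, and 6190 to 8678, 7559 to 8532 and 8461 to 9709 CPM in males. Without male nicotine replicate 21 the members' sum with nicotine was 7859 to 8532 CPM, and the cortical, myelin and cholinergic ranges did not change.

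Markers of some other cells were called higher, foremost those of myelin and cholinergic neurons. In females with nicotine, females without and males without, edgeR called 4.29%, 12.1% and 13.6% of all genes in either direction. In males with nicotine it called 0%. All 10 myelin genes were called higher in females with nicotine, 9 without nicotine and 9 in males without nicotine. Their sum was 14282 to 18188 CPM in female and 10300 to 15934 CPM in male nicotine libraries. It was 11738 to 17695 CPM in female and 14703 to 25166 CPM in male no nicotine libraries, against 8722 to 10580 and 10072 to 12410 CPM in air. Of the 9 basal forebrain cholinergic genes 8 were called higher in females with nicotine (2 without nicotine replicate 2 and 3 without nicotine replicate 6), 9 without nicotine and 8 in males without nicotine, and the counts without nicotine were the same in each fit that left out 1 library. Their sum reached 121 to 313 CPM in female and 125 to 259 CPM in male no nicotine libraries, and 96.3 to 213 CPM in female and 104 to 158 CPM in male nicotine libraries, against 24.9 to 89.9 and 41.1 to 92.5 CPM in air. Of 12 striatal genes 4, 2 and 5 were called higher in the same comparisons, and with single libraries left out these striatal counts ran from 0 to 7, 0 to 2 and 2 to 9. Of 9 interneuron genes 2, 4 and 3 were called higher and 1, 2 and 2 lower, and of 8 thalamic genes 2, 3 and 2 were called higher. With single libraries left out, interneuron calls in either direction ran from 0 to 5, 5 to 7 and 4 to 7. Thalamic calls ran from 0 to 2, 1 to 4 and 1 to 3. Of the 9 astrocyte, 10 microglia and 9 endothelium genes, edgeR called 0 in each comparison with air, while DESeq2 called 1 astrocyte gene without nicotine in each sex and 1 endothelium gene in males, and limma-voom called 1 astrocyte gene in females. No marker of any list was at 0 in a whole group.

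In 3 of the 4 exposed groups, all but male nicotine, the library with the highest summed member level also had cortical and cholinergic sums at one end of its group. These libraries and lists were picked after the values were seen. Sums of the other lists, such as the striatal one, are not given for them, and no list was tested for this. Female nicotine 3, at 9577 CPM for the members, had the highest cortical (3293 CPM) and the lowest cholinergic (96.3 CPM) and myelin (14282 CPM) sums of its group. Female no nicotine 1, at 8933 CPM, had the highest cortical (3374 CPM) and the lowest cholinergic (121 CPM) and myelin (11738 CPM) sums of its group. Male no nicotine 7, at 8678 CPM, had the highest cortical (2536 CPM) and the lowest cholinergic (125 CPM) sum of its group, with the second lowest myelin sum. The part that the makeup of cells in the dissected tissue has in the levels of the members was not tested.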

How the data were processed

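By the authors' account, RNA-Seq of frontal cortex was made as single 50-base reads. These were aligned to the mm9 transcriptome with Bowtie, cleared of duplicates with SAMtools and counted with HTSeq. The deposited values used here are raw counts per gene, in 1 table for 16 female and 1 for 17 male libraries. A column of counts that matches no sample was not used. Camk2a reached 145627 counts in a library over 7465 exonic bases, so whether these counts come after removal of duplicates is not settled. Normalized tables were not used. Whether strand was used in counting is not given in the sources used here.

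Genes with a summed CPM of at least 5 were kept (15158 in females, 15293 in males). One edgeR 4.0.16 model per sex held its 3 groups (TMM, quasi-likelihood, R 4.3.3), and calls were made at a Benjamini-Hochberg adjusted p below 0.01. Levels per library are TMM-normalized CPM. DESeq2 1.42.0, limma-voom with quality weights (limma 3.58.1), other scalings and filters, fits of only the groups compared, fits without each library and a female replicate block were alternatives. The fits were checked on simulated counts. Whether female numbers pair the libraries is not given. Over 14 same-numbered pairs the correlation of deviations ran from -0.27 to 0.27 (median 0.014), above 0.1 in 4. Over 71 other pairs it ran from -0.40 to 0.48 (median -0.004), above 0.1 in 13. These values cannot exclude a pairing, so the block is given as an alternative. Male groups share no numbers.

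The members and the gene lists were chosen with earlier results of these data known. For each list, the called gene with the smallest p in each direction was named. Some of these genes are not reported here. For the members, the 2 genes of least root mean square difference were named. Replicates are animals of separate litters.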

Additional observations from a re-analysis of the deposited data

Results flagged for a closer look

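In 48 sets of values (8 genes in 6 groups), 5 had a library far from the rest of its group by Dixon's criterion, which chance alone meets in about 1 of 20 sets. Shank1 stood high in female air replicate 2, at 809 CPM. Female nicotine replicate 3 stood high for Camk2a, at 5245 CPM, and for Dlgap1, at 557 CPM. Shank3 stood low in male air replicate 39, at 313 CPM, and Shank2 stood high in male no nicotine replicate 7, at 205 CPM. For none of the 8 genes did the difference between the sexes pass in edgeR or DESeq2.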

How the results depend on the processing

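Over the 8 genes and the comparisons within a sex, alternatives other than leaving out a library kept direction and side of the threshold in 340 values, lost 3 calls, gained 15 and turned 2 signs. Fits without 1 library kept both in 750, lost 12 calls, gained 14 and turned 16 signs. Sex and run, and chamber and exposure, cannot be told apart, and counts merge isoforms.

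For females with nicotine against air, DESeq2 called 4 members and 1319 genes, limma-voom 3 and 1012, and a fit of only the groups compared 2 members, against 0 members and 651 genes in the edgeR fit. For males with nicotine, DESeq2 called 1 member and 159 genes, and a fit of only the groups compared 17 genes, against 0. For male nicotine against no nicotine (38 genes), DESeq2 called 1 member and 456 genes, limma-voom 59 genes, and a fit of only the groups compared 0. For the sex difference with nicotine, DESeq2 called 1 gene.

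The replicate block in females left 3 members and 736 genes without nicotine (1829 without the block) and 0 members and 136 genes with nicotine. Whether the female numbers pair the libraries is not given. Under the block the lists of scaffolds, signalling genes, cortical neurons and cholinergic neurons held 10, 2, 4 and 9 calls without nicotine and 0, 0, 1 and 0 with nicotine. Upper quartile scaling gave 242 lower calls of 614 with nicotine and 911 of 1797 without in females, against 351 of 651 and 1066 of 1829.

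Without single libraries, members called ranged from 0 to 5 and genes from 226 to 930 in females with nicotine, from 3 to 6 and 823 to 2505 without, from 0 to 0 members and 0 to 2 genes in males with nicotine, from 4 to 5 and 1521 to 2174 without, and from 0 to 3 and 0 to 246 for male nicotine against no nicotine. The cause of these shifts was not tested.

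Signs turned only for values near 0. Camk2b in females with nicotine was -0.00677 by limma-voom and -0.0088 to 0.0493 without single libraries. Shank3 in males without nicotine was -0.0537 by limma-voom and -0.104 to 0.0834 without single libraries, and in females with nicotine -0.161 to 0.00577. For male nicotine against no nicotine, Camk2b ranged from -0.0299 to 0.0741, Dlg4 from -0.0352 to 0.0624 and Shank3 from -0.157 to 0.029. The sex difference of Shank3 with nicotine was 0.019 without male nicotine replicate 21.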
